A study of Arabidopsis thaliana with 6 samples.

Results

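The histone H4 genes of Arabidopsis thaliana were examined in RNA-seq data from seedlings 10 days old, as the rows of the deposited table that belong to the 8 annotated H4 genes. All 8 were found among the 27655 genes of the table, and all 8 were among the 19013 genes with a mean of at least 1 TPM that entered the test across genes. TPM gives reads per length of gene, scaled to the same total in every library. The family was taken up with its values in this comparison already known, so those values are given as a description, without a test of their own. The series had 3 libraries of the line labelled h3.3ko;HTR5, shortened to the h3.3ko line beside some values, and 3 libraries of wild type seedlings, WT (Col). All plants were kept in long days, 16 h light and 8 h dark, at 22 °C. The name of the line joins a knockout of the histone variant H3.3 with HTR5, an H3.3 gene. Of the 3 H3.3 genes, HTR8 was at 3.19 to 5.20 TPM in these libraries, while transcripts of HTR4 and HTR5 remained abundant, at 0.47 and 0.715 times their Col means. The labels do not state how the line was made, which promoter drives HTR5, how many independent lines were used, or whether seedlings were pooled. Nothing in them ties the replicates to separate cultures, so a p-value sets the group difference against the spread of these libraries only. That spread may be technical.

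Histone H4 pairs with histone H3, and together they form the core on which DNA is wrapped in the nucleosome. Most H4 is made while DNA is copied, and H4 enters chromatin both with the replicative histone H3.1 and with H3.3, the variant that is loaded outside DNA replication. Plants carry several H4 gene copies scattered over the chromosomes, and dividing tissues such as meristems are known to express them strongly.

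The 8 H4 genes encode the same protein from different DNA. Each has a coding sequence of 312 bases in 1 block, and the 8 translate to 1 identical protein of 103 residues. Their coding sequences are 78.8% to 98.1% identical over the 28 pairs (median 82.4%), and 84.4% of the differences lie at the third position of a codon. The first 60 coding bases are given for each gene, 5′ to 3′ on its own strand, to show how far the copies can be told apart by their reads. They were read from the RefSeq TAIR10.1 genome. Capitals mark a base that differs from the most common base of the 8 genes at that position, or any base at the 5 positions with no single most common base. All 8 share 1 base at 42 of the 60 positions.
AT1G07660 (chr1:2369212-2369271, plus strand): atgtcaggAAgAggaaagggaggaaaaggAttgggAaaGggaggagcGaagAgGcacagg
AT1G07820 (chr1:2421687-2421746, minus strand): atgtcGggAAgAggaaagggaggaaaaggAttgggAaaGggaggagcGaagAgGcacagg
AT2G28740 (chr2:12329895-12329954, minus strand): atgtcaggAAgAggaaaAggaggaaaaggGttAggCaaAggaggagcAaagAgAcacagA
AT3G45930 (chr3:16883390-16883449, plus strand): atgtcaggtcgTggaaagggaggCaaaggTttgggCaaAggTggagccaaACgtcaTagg
AT3G46320 (chr3:17020295-17020354, minus strand): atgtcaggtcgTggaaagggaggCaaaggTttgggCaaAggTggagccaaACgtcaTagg
AT3G53730 (chr3:19912911-19912970, minus strand): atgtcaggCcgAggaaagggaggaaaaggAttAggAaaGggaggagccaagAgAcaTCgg
AT5G59690 (chr5:24051649-24051708, plus strand): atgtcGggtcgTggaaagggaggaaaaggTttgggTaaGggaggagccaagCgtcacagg
AT5G59970 (chr5:24146604-24146663, minus strand): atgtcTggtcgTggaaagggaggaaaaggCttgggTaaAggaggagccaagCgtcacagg

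The copies fall into 3 pairs of close relatives and a pair of genes without such a partner. AT1G07660 and AT1G07820 on chromosome 1 differ at 6 of the 312 coding bases, AT3G45930 and AT3G46320 on chromosome 3 at 8, and AT5G59690 and AT5G59970 on chromosome 5 at 9. AT2G28740 (HIS4, chromosome 2) and AT3G53730 (chromosome 3) stand alone. This bears on the counts, since a read that matches both members of a pair cannot be assigned from sequence alone. Of all 50-base windows in the exons, 30.8% of those of AT1G07660, 27.9% of AT3G46320, 25.7% of AT3G45930, 19.4% of AT1G07820, 8.48% of AT5G59690 and 6.94% of AT5G59970 occur at another place in the genome. None of the windows of AT2G28740 or AT3G53730 do. With 100-base windows the shares are at most 12.1%, and with 150-base windows at most 2.22%. The sources used here give neither the read length nor the treatment of reads with several matches, so the split of counts within each of the 3 pairs is uncertain.

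Transcripts of the H4 family were more abundant in h3.3ko;HTR5 than in Col. The summed level of the 8 genes was 1341, 1379 and 1264 TPM in h3.3ko;HTR5, against 861, 919 and 927 TPM in Col (replicates 1 to 3 of each). The means were 1328 ± 58.7 TPM in h3.3ko;HTR5 and 902 ± 35.8 TPM in Col (SD, n = 3 each), a ratio of 1.47. The lowest h3.3ko;HTR5 library stood above the highest Col library. Partners of a pair differ in length, so the summed TPM still depends on how reads were split within a pair, and reads dropped for matching several places would be missing from it. Because whole seedlings were used, a change in the number of cells that express H4 and a change in H4 RNA per cell cannot be told apart.

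All 8 members had a higher mean in h3.3ko;HTR5. In the fit across all genes (limma on log2(TPM + 1), Benjamini-Hochberg adjusted p under 0.05), 6 of the 8 passed, all in the higher direction. Over all tested genes, 3.7% passed in the higher direction, 8.32% in the lower direction and 12% in either. The libraries of the groups did not overlap for the same 6 members, with h3.3ko;HTR5 higher, which 10.8% of all tested genes also showed, while 20.4% were lower without overlap. The median log2 fold change of the 8 members was 0.42, and that of all tested genes was -0.03. Since the family was chosen with these values in view, the counts describe it and are not a test of it.

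AT3G53730 had the largest log2 fold change of the 8 (chromosome 3, 19912385 to 19913515, minus strand, TAIR10.1). It stood at 302, 299 and 275 TPM in h3.3ko;HTR5, against 124, 128 and 122 TPM in Col. The lowest h3.3ko;HTR5 library was 2.15-fold above the highest Col library, and the ratio of the means was 2.34 (log2 fold change 1.22 ± 0.05 SE). These values rest on 1962 to 2231 reads per library in h3.3ko;HTR5 and 865 to 912 reads in Col. None of its exon windows of 50 bases match another place, so reads of that length shared with another H4 gene do not enter this value. AT3G53730 also has the longest annotated stretch between gene start and coding sequence, 545 bases, against 66 to 379 bases in the other members.

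HIS4 and AT1G07820 had the next largest log2 fold changes. HIS4 (AT2G28740, chromosome 2, 12329345 to 12330059, minus strand) stood at 138, 146 and 135 TPM in h3.3ko;HTR5, against 83.5, 97.9 and 101 TPM in Col (log2 fold change 0.57 ± 0.07 SE). AT1G07820 (chromosome 1, 2421089 to 2422066, minus strand) stood at 189, 177 and 165 TPM in h3.3ko;HTR5, against 125, 121 and 118 TPM in Col (log2 fold change 0.54 ± 0.05 SE). In both genes all 3 h3.3ko;HTR5 libraries lay above all 3 Col libraries. AT5G59690 (chromosome 5, 24051474 to 24052218, plus strand), the most abundant H4 gene in both groups, stood at 332, 356 and 335 TPM in h3.3ko;HTR5, against 236, 254 and 263 TPM in Col (log2 fold change 0.44 ± 0.05 SE). Its groups were likewise separate, by a gap of 69.8 TPM.

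Smaller log2 fold changes were seen in AT3G45930 and AT5G59970. AT3G45930 (chromosome 3, 16883316 to 16884009, plus strand) stood at 119, 131 and 108 TPM in h3.3ko;HTR5, against 85.8, 93.1 and 90.02 TPM in Col (log2 fold change 0.40 ± 0.07 SE). AT5G59970 (chromosome 5, 24145831 to 24146729, minus strand) stood at 120.3, 128 and 114 TPM in h3.3ko;HTR5, against 91.5, 104 and 99.5 TPM in Col (log2 fold change 0.30 ± 0.06 SE). The groups were separate in both genes, with gaps of 14.4 and 10.4 TPM. The call of AT5G59970 was lost when the variance prior had no trend.

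The last 2 members did not pass the threshold, and their groups overlapped. AT3G46320 (chromosome 3, 17019785 to 17020428, minus strand) stood at 96.3, 97.7 and 91.5 TPM in h3.3ko;HTR5, against 75.1, 82.4 and 95.5 TPM in Col (log2 fold change 0.18 ± 0.08 SE). Of the Col libraries, replicate 3 alone reached into the h3.3ko;HTR5 range. Without that library AT3G46320 passed as well, at a log2 fold change of 0.27, which makes the count 7 of 8. Without Col replicate 1 it did not pass, and its log2 fold change was 0.10. AT1G07660 (chromosome 1, 2368833 to 2369735, plus strand), the least abundant member, stood at 44.3, 44.5 and 39.8 TPM in h3.3ko;HTR5, against 40.4, 38.8 and 38 TPM in Col (log2 fold change 0.13 ± 0.06 SE). It rests on the fewest reads of the family, 227 to 265 per library in h3.3ko;HTR5 and 215 to 236 in Col. AT1G07660 and AT3G46320 also have the highest shares of repeated 50-base windows, 30.8% and 27.9%. Their partners AT1G07820 (19.4%) and AT3G45930 (25.7%) hold repeated windows too, and both passed. The part of shared reads in these values was not tested.

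**Figure D1:**
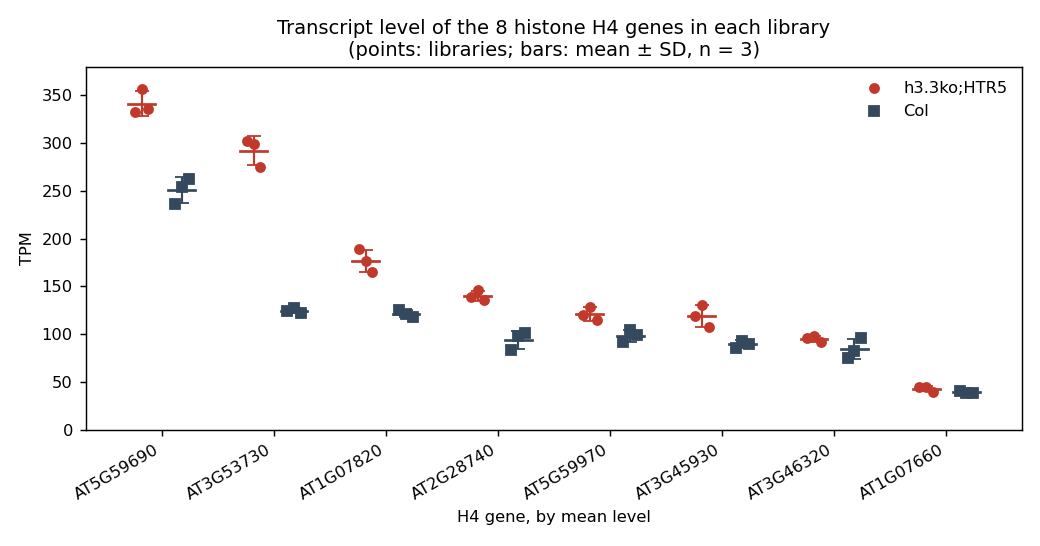
TPM of each H4 gene (vertical axis) in the 3 h3.3ko;HTR5 libraries and the 3 Col libraries, with marks for mean ± SD. AT3G53730 lies at 275 to 302 TPM in h3.3ko;HTR5 and 122 to 128 TPM in Col, while the groups overlap in AT3G46320 and AT1G07660.

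The order of the genes by level was nearly the same in both groups. By mean TPM the order in h3.3ko;HTR5 was AT5G59690, AT3G53730, AT1G07820, HIS4, AT5G59970, AT3G45930, AT3G46320 and AT1G07660, and AT5G59970 and AT3G45930 were the only neighbours in that order with overlapping library ranges. In Col AT5G59690 was again first (251 ± 13.7 TPM), and AT3G53730 (125 ± 2.83 TPM) and AT1G07820 (121 ± 3.75 TPM) came after it with overlapping ranges. AT5G59970, HIS4, AT3G45930 and AT3G46320 followed with means of 98.3 to 84.4 TPM, each overlapping the next, and AT1G07660 (39.1 ± 1.21 TPM) was last. The most abundant member exceeded the least abundant 7.96-fold in h3.3ko;HTR5 and 6.42-fold in Col. With exon lengths in place of gene spans, the Col means ran from 37.2 TPM for AT1G07660, above 79.6% of the expressed genes, to 191 TPM for AT5G59690, above 96.7% of them.

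As a share of the summed H4 TPM, AT3G53730 made up 22.5%, 21.7% and 21.7% in the h3.3ko;HTR5 libraries, against 14.4%, 13.9% and 13.2% in the Col libraries. That is 8.16 percentage points more on the means, and AT3G53730 was the only member of the 8 whose share was higher in every h3.3ko;HTR5 library than in every Col library. The shares of AT3G46320, AT5G59690, AT5G59970, AT1G07660 and AT3G45930 were lower without overlap, with differences of -2.16 to -0.98 points, although none of these genes had a lower mean TPM. HIS4 and AT1G07820 overlapped, at mean shares of 10.5% and 13.3% in h3.3ko;HTR5 and 10.4% and 13.5% in Col. Shares within a library add to a fixed total, so a larger share of 1 gene lowers those of the others. Of the difference in summed TPM, AT3G53730 held 39.3%, AT5G59690 21.2%, AT1G07820 13.1% and HIS4 10.7%. The family without AT3G53730 was still higher in h3.3ko;HTR5, at 1036 ± 45.5 TPM, against 778 ± 35.7 TPM in Col (SD, n = 3 each), a ratio of 1.33 with no overlap.

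**Figure D2:**
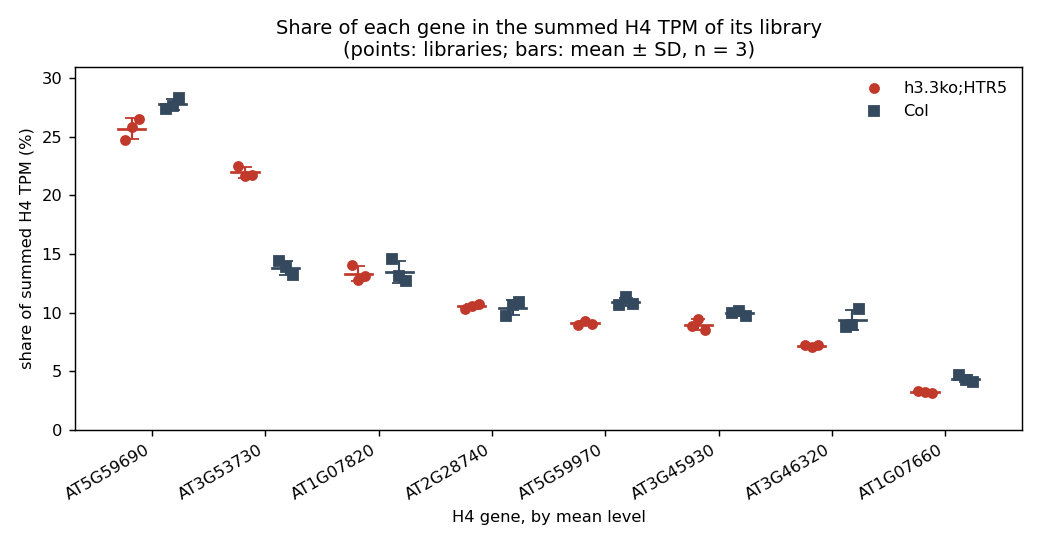
Share of each H4 gene in the summed H4 TPM of its library (percent) in h3.3ko;HTR5 and Col, 3 libraries each. AT3G53730 takes 21.7% to 22.5% in h3.3ko;HTR5 and 13.2% to 14.4% in Col.

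The bases before the annotated gene start are given for AT3G53730, which differed most between the groups, for AT5G59690, the most abundant member, and for AT3G45930 and AT3G46320, whose windows are near copies. They are from the RefSeq TAIR10.1 genome, 5′ to 3′ on the strand of the gene. The window is 250 bases, cut for AT3G53730 to the 135 bases that lie outside the neighbouring gene. Capitals mark CGGATC, the last 6 letters of the octamer CGCGGATC, a motif known from plant histone gene promoters.
AT3G53730 (chr3:19913516-19913650, minus strand): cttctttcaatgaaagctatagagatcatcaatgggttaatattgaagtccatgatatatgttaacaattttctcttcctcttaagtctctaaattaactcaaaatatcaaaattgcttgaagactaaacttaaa
AT5G59690 (chr5:24051224-24051473, plus strand): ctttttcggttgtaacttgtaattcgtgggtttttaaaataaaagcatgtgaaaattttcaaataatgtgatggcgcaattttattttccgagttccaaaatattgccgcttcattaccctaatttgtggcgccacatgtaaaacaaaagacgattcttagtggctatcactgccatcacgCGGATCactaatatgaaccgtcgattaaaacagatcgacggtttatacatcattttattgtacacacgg
AT3G45930 (chr3:16883066-16883315, plus strand): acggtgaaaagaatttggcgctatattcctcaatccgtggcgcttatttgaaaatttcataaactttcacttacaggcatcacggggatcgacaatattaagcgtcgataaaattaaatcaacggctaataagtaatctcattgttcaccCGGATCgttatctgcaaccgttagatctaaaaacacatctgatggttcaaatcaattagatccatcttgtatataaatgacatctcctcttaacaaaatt
AT3G46320 (chr3:17020429-17020678, minus strand): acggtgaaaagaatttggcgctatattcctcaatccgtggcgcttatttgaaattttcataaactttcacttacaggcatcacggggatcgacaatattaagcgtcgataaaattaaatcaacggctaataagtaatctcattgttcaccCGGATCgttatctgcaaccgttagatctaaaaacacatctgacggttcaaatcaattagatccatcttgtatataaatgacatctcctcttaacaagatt

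The windows of AT3G45930 and AT3G46320 differ at 3 of 250 bases, so this pair shares nearly all of its upstream sequence as well as its coding sequence. The next most similar pair, AT5G59690 and AT5G59970, matched at 35.2% of positions when laid side by side without gaps. The full octamer, searched on both strands of the 250 bases, was found in 2 of the 8 H4 windows (AT1G07660 and AT5G59690), against 0.135% of the windows of 27443 nuclear protein-coding genes. It was in 3 of 5 H3.1, 2 of 4 canonical H2A, 1 of 9 variant H2A, 0 of 11 H2B and 1 of 3 H3.3 windows. The shorter CGGATC was chosen after the H4 windows had been read, and it includes every octamer. It was found in 6 of the 8, between 45 and 160 bases before the gene start, against 3.88% of all windows. It was also in 3 of 5 H3.1, 2 of 4 canonical H2A, 1 of 9 variant H2A, 2 of 11 H2B and 1 of 3 H3.3 windows. AT1G07820 and AT3G53730 lack these letters, and 191 and 115 bases of their windows lie inside the neighbouring gene. TATAAA was found in 5 of the 8 windows and in 47.3% of all windows. Of the letters known as sites of E2F factors, TTTGGCGC was found in AT3G45930 and AT3G46320, whose windows are near copies, and in 0.361% of all windows. TTTCCCGC was in 0 of the 8 and in 0.619% of all. Of 17 windows of DNA replication genes, 3 held TTTGGCGC and 4 held TTTCCCGC. ACGTCA, a hexamer known from plant histone promoters, and the longer CCACGTCA that contains it were in 0 of the 8 H4 windows, against 7.69% and 1.25% of all windows. They were found in 8 and 4 of the 11 H2B windows. The nonamer CATCCAACG was in 0 of the 8 and in 0.149% of all. The 6 members with CGGATC had log2 fold changes from 0.13 (AT1G07660) to 0.57 (HIS4), and the 2 without it had 0.54 (AT1G07820) and 1.22 (AT3G53730). Both the letters and the family were chosen with these data in view, so a link between CGGATC and the changes was not tested. A match of letters does not show that a factor binds there, and the window depends on where the annotation places the gene start.

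**Figure D3:**
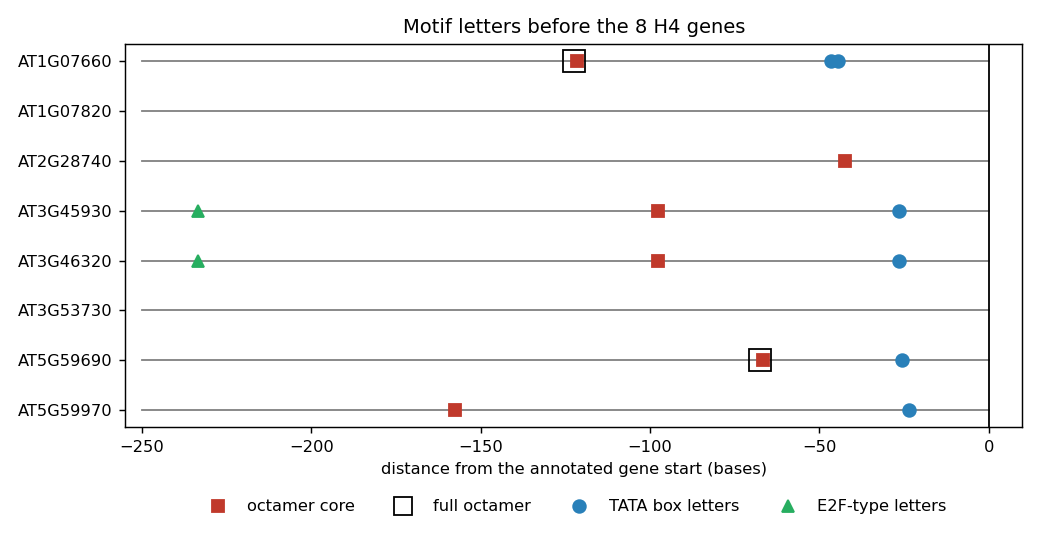
Position of motif letters, on either strand, in the 250 bases before each H4 gene (horizontal axis, distance from the annotated gene start in bases). CGGATC is found in 6 of the 8 genes and not in AT1G07820 or AT3G53730.

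Genes of the other core histones were set beside the H4 genes. None of the 5 genes of the replicative H3.1 passed the test over all genes (limma, 0 at an unadjusted p under 0.05, 0 with limma voom on recovered reads). HTR1, the most abundant of them, stood at 310.2, 281 and 276 TPM in h3.3ko;HTR5, against 259, 308 and 311 TPM in Col, and HTR2 averaged 204 ± 11.4 TPM in the h3.3ko line and 195 ± 17.7 TPM in Col (SD, n = 3 each). With exon lengths, the H4 to H3.1 ratio of summed TPM was 1.91, 2.05 and 1.99 in the h3.3ko;HTR5 libraries, against 1.45, 1.33 and 1.34 in the Col libraries. Every h3.3ko;HTR5 library had a higher H4 to H3.1 ratio than every Col library.

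All 3 H3.3 genes, which the name of the line points to, passed as lower (limma). HTR8 stood at 3.19, 5.20 and 5.03 TPM in h3.3ko;HTR5, against 315, 323 and 289 TPM in Col (log2 fold change -5.84 ± 0.13 SE, limma adjusted p = 4.08e-09). The level of HTR4 was 151 ± 3.29 TPM in the h3.3ko line and 321 ± 11 TPM in Col (log2 fold change -1.08 ± 0.04 SE, limma adjusted p = 5.06e-07). For HTR5 it was 295 ± 4.51 TPM in the h3.3ko line and 412 ± 9.97 TPM in Col (log2 fold change -0.48 ± 0.04 SE, limma adjusted p = 7.7e-05). Reads of an added HTR5 copy, if there is one, could not be told apart from those of the resident gene. With exon lengths the H4 genes summed to 973 to 1059 TPM in h3.3ko;HTR5, against 663 to 712 TPM in Col, and the H3.1 and H3.3 genes together to 903 to 945 TPM in h3.3ko;HTR5, against 1480 to 1528 TPM in Col. H4 transcripts amounted to 1.08 to 1.14 times these H3 transcripts in h3.3ko;HTR5, and to 0.448 to 0.473 times in Col. These ratios concern transcripts of the genes listed and do not measure protein.

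**Figure D4:**
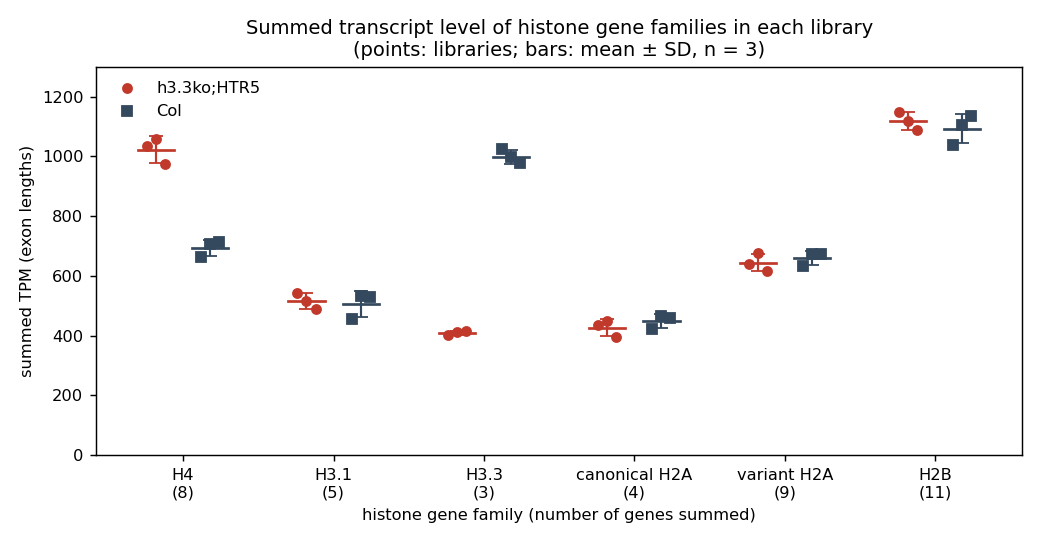
Summed TPM with exon lengths of histone gene families in h3.3ko;HTR5 and Col, 3 libraries each. H4 is higher in h3.3ko;HTR5 (973 to 1059 against 663 to 712 TPM) and H3.3 lower, while the libraries of both groups overlap for H3.1, H2A and H2B.

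None of 4 canonical H2A genes passed (limma, 1 at an unadjusted p under 0.05, 0 with voom). HTA10, the most abundant, averaged 212 ± 17 TPM in the h3.3ko line and 225 ± 24.9 TPM in Col, and HTA13 99.4 ± 5.65 TPM in the h3.3ko line and 106 ± 2.88 TPM in Col (SD, n = 3 each). Among 9 variant H2A genes, 2 rose, none fell and 7 did not pass (limma, 4 at an unadjusted p under 0.05). With voom 2 passed as higher and 1 as lower. Over all tested genes 3.7% passed as higher in the main fit. HTA4 stood at 13.4, 14.8 and 13.7 TPM in h3.3ko;HTR5, against 6.74, 6.05 and 5.88 TPM in Col (log2 fold change 1.05 ± 0.09 SE, limma adjusted p = 0.00016). HTA7 stood at 118, 113 and 112 TPM in h3.3ko;HTR5, against 88.6, 94.3 and 84.1 TPM in Col (log2 fold change 0.36 ± 0.05 SE, limma adjusted p = 0.00252). The most abundant of these genes did not pass, HTA6 at 172 ± 10.4 TPM in the h3.3ko line and 181 ± 13.4 TPM in Col and HTA9, of H2A.Z, at 148 ± 9.51 TPM in the h3.3ko line and 159 ± 1.44 TPM in Col. Without Col replicate 1 or h3.3ko;HTR5 replicate 2, HTA5 and 1 further variant H2A gene passed as lower, making 4 calls.

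Of 9 tested H2B genes 4 rose, none fell and 5 did not pass, and the other 2 of the 11 were too low to test. Over all tested genes 3.7% passed as higher. HTB6 stood at 23.7, 23.8 and 23.1 TPM in h3.3ko;HTR5, against 10.7, 13.3 and 17.4 TPM in Col (log2 fold change 0.76 ± 0.14 SE, limma adjusted p = 0.00641). HTB9, the most abundant, averaged 371 ± 7.35 TPM in the h3.3ko line and 329 ± 9.91 TPM in Col (log2 fold change 0.17 ± 0.04 SE, limma adjusted p = 0.0183), and HTB4, which did not pass, 290.5 ± 7.16 TPM in the h3.3ko line and 309 ± 18.5 TPM in Col. HTB7, a low gene, stood at 5.85, 8.99 and 8.75 TPM in h3.3ko;HTR5, against 5.42, 5.34 and 4.09 TPM in Col (log2 fold change 0.56 ± 0.16 SE, limma adjusted p = 0.0493), and it passed only narrowly. Its call was lost in 5 of the 6 fits with 1 library left out, and also with a replicate block (limma adjusted p = 0.0596), with voom, with a pseudocount of 0.1, with no filter on low values and with no variance trend, over which its adjusted p ran from 0.0503 to 0.114. The call of HTB9 was lost in 3 of the fits with 1 library left out and with no variance trend. The H2B count was 3 with a replicate block and with voom, 1 with no variance trend, 1 without Col replicate 2, and 2 without the third h3.3ko;HTR5 library. The median log2 fold change was 0.04 for H3.1, -0.09 for canonical H2A, -0.11 for variant H2A and 0.09 for H2B genes, beside 0.42 for the H4 genes. The difference between families was not tested, since the H4 genes were chosen from this comparison.

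No annotated gene overlaps an H4 gene. The nearest annotated gene on each side gives 16 genes, of which 13 are in the table and 8 were tested. None of the 8 passed (limma, 1 at an unadjusted p under 0.05, 0 with voom), although AT5G59700 passed as higher without Col replicate 1. AT3G53740, a ribosomal protein gene 135 bp from the start of AT3G53730 on the same strand, averaged 201 ± 11.5 TPM in the h3.3ko line and 205 ± 12.5 TPM in Col (SD, n = 3 each). CHX20, 2140 bp on the other side of AT3G53730, averaged 16.3 ± 0.51 TPM in the h3.3ko line and 15.9 ± 1.81 TPM in Col. Within 50 kb of an H4 gene lie 7 other histone genes, 6 for H2B and HTA6 for H2A. Over all tested genes 3.7% passed as higher, and of these 7 genes 3 did. They are HTB3, 1536 bp from HIS4, HTB6, 22133 bp from AT3G53730, and HTB9, 13277 bp from AT3G45930. HTB3 stood at 67.7, 77.4 and 66.3 TPM in h3.3ko;HTR5, against 59.6, 51.3 and 48.2 TPM in Col (log2 fold change 0.41 ± 0.09 SE, limma adjusted p = 0.0128). Without Col replicate 2 the count was 1, HTB6, and a difference between near and distant H2B genes was not tested.

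Genes of DNA replication, with which H4 synthesis is normally coupled, were lower or did not pass. Of 17 tested, 6 fell, none rose and 11 did not pass (limma), while 8.32% of all tested genes passed as lower. All 17 had a log2 fold change below 0, with a median of -0.30, beside -0.03 for all tested genes. RNR1, a subunit of the enzyme that makes DNA building blocks, stood at 29, 29.6 and 28.4 TPM in h3.3ko;HTR5, against 37.5, 36.5 and 44.1 TPM in Col (log2 fold change -0.42 ± 0.08 SE, limma adjusted p = 0.00612). TSO2, another subunit of that enzyme, stood at 77.7, 77.1 and 81.4 TPM in h3.3ko;HTR5, against 92.6, 99.8 and 112 TPM in Col (log2 fold change -0.36 ± 0.07 SE, limma adjusted p = 0.00772). MCM7, of the helicase that opens DNA, averaged 14.4 ± 0.491 TPM in the h3.3ko line and 19.3 ± 2.42 TPM in Col (limma adjusted p = 0.0238). The other 3 were MCM3, MCM4 and the licensing factor gene CDT1A. Of the 17, 12 were at an unadjusted p under 0.05 (limma), and with voom 9 passed, all as lower. The libraries of 14 were lower without overlap, which 20.4% of all tested genes also showed. The count past the threshold depended on single libraries. It was 3 without Col replicate 2, h3.3ko;HTR5 replicate 1 or h3.3ko;HTR5 replicate 2, 2 without Col replicate 3 or h3.3ko;HTR5 replicate 3, and 3 with a replicate block, while RNR1 and TSO2 passed in each of these fits.

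None of 9 genes of G2 and M phase passed (limma, 1 at an unadjusted p under 0.05, 0 with voom). KNOLLE, of cell plate formation, averaged 31.3 ± 0.273 TPM in the h3.3ko line and 31.7 ± 5.20 TPM in Col, and the cyclin gene CYCB1;2 19.8 ± 0.882 TPM in the h3.3ko line and 17.3 ± 1.46 TPM in Col (SD, n = 3 each). None of 7 genes for chaperones of H3 and H4 passed (1 at an unadjusted p under 0.05), while with voom HIRA passed as higher. MSI1, a subunit of CAF-1, the complex that delivers H3 and H4 to new DNA, averaged 33.2 ± 0.565 TPM in the h3.3ko line and 34.4 ± 2.30 TPM in Col, and NASP 24.2 ± 1.70 TPM in the h3.3ko line and 23 ± 2.18 TPM in Col. None of 7 genes for enzymes that modify the H4 tail passed (1 at an unadjusted p under 0.05, 0 with voom), although PRMT1A passed as lower without Col replicate 2. The acetyltransferase gene HAM1 averaged 29 ± 1.79 TPM in the h3.3ko line and 26.4 ± 1.82 TPM in Col, and the arginine methyltransferase gene PRMT10 26.2 ± 0.177 TPM in the h3.3ko line and 28 ± 1.41 TPM in Col.

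**Figure D5:**
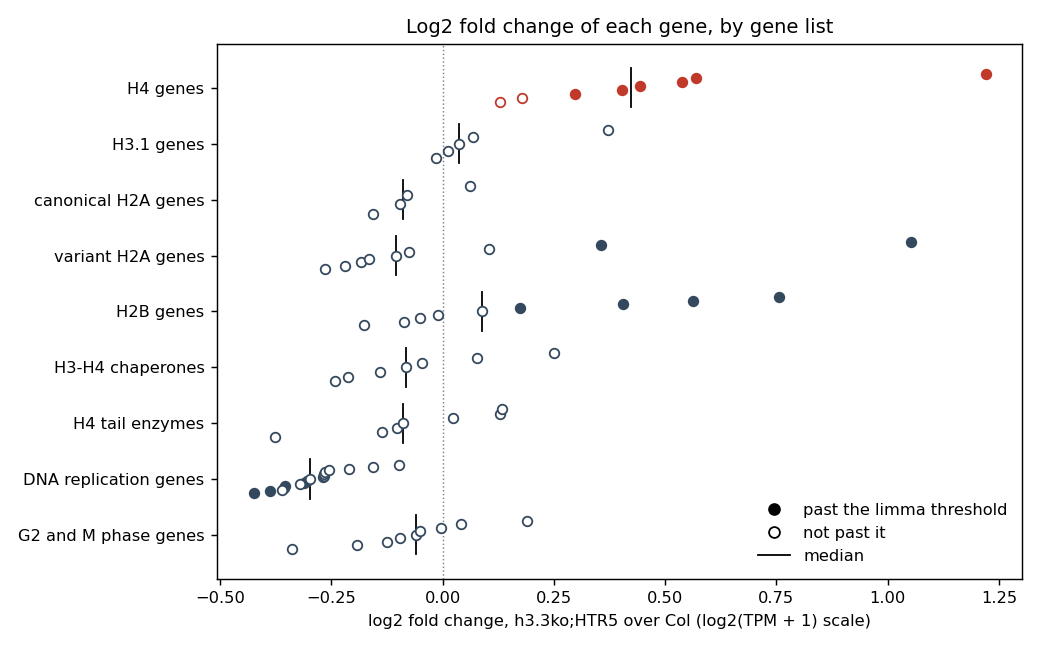
Log2 fold change of h3.3ko;HTR5 over Col, on the log2(TPM + 1) scale, for each tested gene of the H4 family and of the lists set beside it. The 8 H4 genes lie between 0.13 and 1.22, and the 17 DNA replication genes all lie below 0.

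Markers of the organs in the seedling were checked, since dividing tissue holds much of the H4 RNA. Of 6 meristem markers 4 were tested and none passed (limma, 1 at an unadjusted p under 0.05), with a summed level of 12.9 to 14.3 TPM in the h3.3ko line and 16 to 16.4 TPM in Col. Of the tested markers KNAT1 was the most abundant, with a mean of 8.40 TPM in the h3.3ko line and 10.2 TPM in Col, without overlap. STM averaged 2.18 TPM in the h3.3ko line and 2.02 TPM in Col, and the libraries overlapped for STM, PLT1 and PLT2. WUS and CLV3 of the meristem list were at or near 0 in every library. None of 3 leaf markers passed (1 at an unadjusted p under 0.05, summed level 37886 to 39487 TPM in the h3.3ko line and 35379.8 to 37742 TPM in Col), and none of 5 root markers (1 at an unadjusted p under 0.05, 89.2 to 93.6 TPM in the h3.3ko line and 79.99 to 93.9 TPM in Col). Of 4 flower and seed markers (summed level 1.41 to 5.09 TPM in the h3.3ko line and 0.528 to 1.41 TPM in Col), AP3, AG and OLE1 were at or near 0, and the seed storage gene CRA1 passed as higher, at 3.33, 1.23 and 4.68 TPM in h3.3ko;HTR5, against 0.737, 0.83 and 0.381 TPM in Col (limma adjusted p = 0.0292). The part of these markers in the H4 values was not tested.

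The genes whose levels followed the H4 genes most closely over the 6 libraries were named by Pearson correlation with the mean log2(TPM + 1) of the 8 members, among 11657 other genes with a mean of at least 10 TPM. The libraries fall into 2 groups and share their scaling, and 116 genes reached 0.95. The closest were AT5G37360 (r = 0.996), AT3G16310 (r = 0.995), AT2G40960 (r = 0.995), POR C, of chlorophyll synthesis (r = 0.992), and HMGA, for a chromatin protein of the high mobility group (r = 0.991). HMGA stood at 119.9, 119 and 113 TPM in h3.3ko;HTR5, against 92.4, 92.5 and 95.6 TPM in Col. AT2G40960, annotated as a nucleic acid binding R3H protein, stood at 16, 17.8 and 14.9 TPM in h3.3ko;HTR5, against 8.98, 9.20 and 9.70 TPM in Col. The other 3 differed less, since r does not measure the size of a difference. AT5G37360 averaged 70.2 TPM in the h3.3ko line and 61.1 TPM in Col. It passed (limma adjusted p = 0.0259), but not in any of the 6 fits with 1 library left out. AT3G16310 (28.9 TPM in the h3.3ko line, 26.4 TPM in Col) and POR C (291 and 271 TPM) did not pass (limma adjusted p = 0.199 and 0.112).

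Across the series, 13792031 to 14498093 reads per library could be recovered from the TPM values. Of the 19013 tested genes 703 passed as higher and 1582 as lower in the h3.3ko line, so that 30.8% of the calls were higher. With quantile normalization this share was 46.4%, and with median-of-ratios scaling 43.7%. Under both of these scalings 6 of the 8 H4 genes passed, all as higher, with median log2 fold changes of 0.49 and 0.46. Over all tested genes, 1012 of 19013 passed as higher with quantile normalization and 967 of 19010 with median-of-ratios scaling. Replicates differed beyond sampling noise in both groups (chi-square per degree of freedom from 2.13 to 3.91), so none was taken for a second deposit of another. Such spread does not show that they came from separate cultures.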

How the data were processed

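RNA was extracted with a plant RNA kit and made into libraries with a NEBNext Ultra kit, per the labels' protocols. Per the submitters' processing notes, the tools were fastp 0.20.1, HISAT2 2.1.10 and DESeq2 1.26.0, with the TAIR10 build. The counting tool, its strand setting and its handling of reads with several matches were not stated there. The authors deposited TPM for all samples in 1 table, and its columns were matched to samples by name.

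With the full gene span of the TAIR10.1 annotation as length, TPM gave whole reads (tolerance 0.02) in all 6 libraries for 22980 of 22985 expressed genes (99.98%), so the deposited TPM follow gene spans. Of 27655 identifiers 27445 matched that annotation. TPM was also recomputed with exon lengths.

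The test was limma 3.58.1 (R 4.3.3) on log2(TPM + 1), for genes averaging 1 TPM or more, with a variance trend, no block, and Benjamini-Hochberg adjustment at 0.05. The script was tested on simulated data. Fold changes on this scale understate those of low genes. Alternatives were other pseudocounts, filters, scalings and lengths, a replicate block, no variance trend, a robust prior, voom on recovered reads, and each library left out. Sequence searches used Python 3.11.15. The members, lists and tests were chosen with earlier results of these data known. Genes named were all members, in each list the 2 most abundant and the 2 with the largest change past the threshold, the H3.3 genes, passing neighbours, and the 5 most similar profiles. Others were named after their values were seen.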

Additional observations from a re-analysis of the deposited data

How the results depend on the processing

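All 8 H4 genes had a log2 fold change above 0 in each of the 16 alternative fits, and 6 passed in every one except without a variance trend (5) and without Col replicate 3 (7). With 1 library left out the ratio of summed H4 TPM was 1.44 to 1.51. Without a variance trend 1443 genes passed in all, 1 H2B gene and 1 histone gene within 50 kb. The chaperone count was 1 with voom. Calls with 1 library left out were 1289 to 2068 over all genes, 1 to 3 for H2B, 2 to 4 for variant H2A, 2 to 5 for DNA replication, 0 to 1 for H4 tail enzymes, 0 to 1 for genes next to H4 genes and 1 to 3 for histone genes within 50 kb. Over all genes they were 1464 without Col replicate 2 and 1289 without h3.3ko;HTR5 replicate 3, against 2285. In 120 bases before the gene start, 1 of 8 H4 genes had the octamer, 4 had CGGATC and 0 had TTTGGCGC, since fewer bases were searched. The cause of the other changes was not tested. No effect shared by same-numbered libraries of the groups was seen. Correlations of same-numbered deviations were -0.043, 0.024 and -0.012, and those of other numbers ran from -0.055 to 0.060. Whether same-numbered samples were handled together is not settled by these values. With a replicate block 1851 genes passed, 6 H4 genes and 3 DNA replication genes. AT1G07660 rests on the fewest reads of the family, and the split of counts within the 3 gene pairs is uncertain. The part of either in the values was not tested.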
